A study of Mus musculus with 96 samples.

Results

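The genes described are the nuclear-encoded subunits of the oxidative phosphorylation system in mouse embryonic fibroblasts followed after serum was added. They were chosen by symbol, as the genes whose names begin with Nduf followed by a, b, c, s or v, with Uqcr, with Cox4 to Cox8 or with Atp5, and those named Sdha to Sdhd or Cyc1. This took 91 of the 15895 genes in the deposited table. Of the 91 genes 80 encode subunits of the 5 complexes, 36 in complex I, 4 in complex II, 9 in complex III, 16 in complex IV and 15 in complex V. A further 7 (Ndufaf1 to Ndufaf7) are assembly factors of complex I, and 4 (Atp5s, Atp5sl, Cox7a2l and Ndufa4l2) carry similar names without being subunits of these complexes. The mean signal over all libraries was at least 10 for 84 of the 91 genes, and no filter on low values was applied.

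Primary fibroblasts of CF1 mice, isolated at embryonic day 13, were starved for 36 h in 0.5% fetal calf serum, and serum was then raised to 20%. Polyadenylated RNA was sequenced in 2 time courses called Cycle 1 (63 libraries used, up to 38 h) and Cycle 2 (32 libraries, up to 27 h), with 1 library per time. No gene was altered and no other agent was given. The signal is the number of reads on a gene's exons per 10000000 mapped reads, at a depth of 5067432 to 14500278 reads per library. For tests the libraries were averaged within time windows of each Cycle and compared with the starved libraries, those taken 1 h before and at 0 h, so the Cycles are the replicates (n = 2 per window up to 27 h, n = 1 after it). All windows share these starved libraries.

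The 0 h libraries, labelled as taken before serum, held high signals of genes known to respond early to serum. Fos, an immediate early gene of the serum response, rose from 914 at -1 h to 24883 at 0 h in Cycle 1 and from 466 to 15149 in Cycle 2. Egr1 went from 3404 to 28363 and from 1760 to 18343. The cause of these rises was not tested. The main values use both starved times, as the study did, and values against -1 h alone are given beside the counts. The starved libraries of Cycle 2 also held more Mki67, a proliferation marker, at 3465 and 3310 against 1088 and 1205 in Cycle 1. All 8 fibroblast markers were above 0 in every library, with a summed signal of 384474 to 531590 in the starved libraries and of 171906 to 229897 at 19 to 23.5 h. With the deposited scaling the median log2 change over all genes was below 0 in each window up to 28 to 33 h. Rescaling the libraries to a common median took it from -0.15 to -0.02 at 0.5 to 1.5 h, from -0.32 to -0.12 at 2 to 3.5 h and from 0.00 to -0.10 at 34 to 38 h.

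Oxidative phosphorylation couples the oxidation of NADH and succinate to the synthesis of ATP in the inner mitochondrial membrane. Electrons enter at complex I (NADH dehydrogenase) or complex II (succinate dehydrogenase, also an enzyme of the tricarboxylic acid cycle), pass through complex III (the cytochrome bc1 complex) and reach oxygen at complex IV (cytochrome c oxidase), while protons flow back through complex V (ATP synthase). All complexes except complex II also hold subunits encoded by mitochondrial DNA, which are not among the 91 genes, so that the nuclear genes supply only part of each of them. Fibroblasts that leave quiescence enlarge and copy their mitochondria before they divide, and NRF1, GABP (an ETS-family factor), YY1 and ERR alpha are known regulators of these genes.

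Several of these genes exist in near-identical copies elsewhere in the genome, and 50-base reads from them cannot be assigned to 1 place. Each 50-base stretch of the coding sequence of the 88 members with an annotated transcript was searched in the other parts of the NCBIM37 genome. The following stretches are shown as examples of repeated and unrepeated coding sequence. The first 3 were found again exactly elsewhere, in 9, 3 and 4 places, and the fourth was found nowhere else.
Atp5l (chromosome 9, reverse strand, gene span chr9:44721333-44728825, coding bases 215 to 264): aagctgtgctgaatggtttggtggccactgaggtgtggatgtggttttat
Cox7c (chromosome 13, reverse strand, gene span chr13:86184421-86186509, coding bases 70 to 119): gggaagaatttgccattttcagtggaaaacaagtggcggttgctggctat
Atp5g2 (chromosome 15, reverse strand, gene span chr15:102493299-102501478, coding bases 203 to 252): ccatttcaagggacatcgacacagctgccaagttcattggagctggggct
Atp5g3 (chromosome 2, reverse strand, gene span chr2:73746504-73749383, coding bases 1 to 50): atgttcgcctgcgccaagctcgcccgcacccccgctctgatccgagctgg

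Of the 75 subunits that are not tissue-restricted isoforms, 12 had more than 50% of their coding stretches in another place, and their median signal was 68.1 against 837 for the other 63. Atp5l, a subunit of the membrane part of ATP synthase, had a mean of 1.91 with 100% of its stretches repeated in 13 other places, and Cox7c had 5.11 with 100% in 4 places. The proton-conducting c ring of ATP synthase is encoded by the genes Atp5g1, Atp5g2 and Atp5g3, whose mature proteins are identical. Atp5g1 and Atp5g2 had means of 5.29 and 4.58, with 99.7% and 100% of stretches repeated, while Atp5g3, with 0%, had 2992. Ndufab1, the mitochondrial acyl carrier protein, had 34.0 with 99.8% repeated. How reads with several matches were counted is not given in the sources used here, so the levels and changes of these 12 genes are uncertain. The others among the 12 are Ndufb4, Ndufs5, Ndufa12, Cox5b, Uqcrb, Atp5h and Cox6c, with means from 61.4 for Ndufb4 to 846 for Cox6c.

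**Figure D1:**
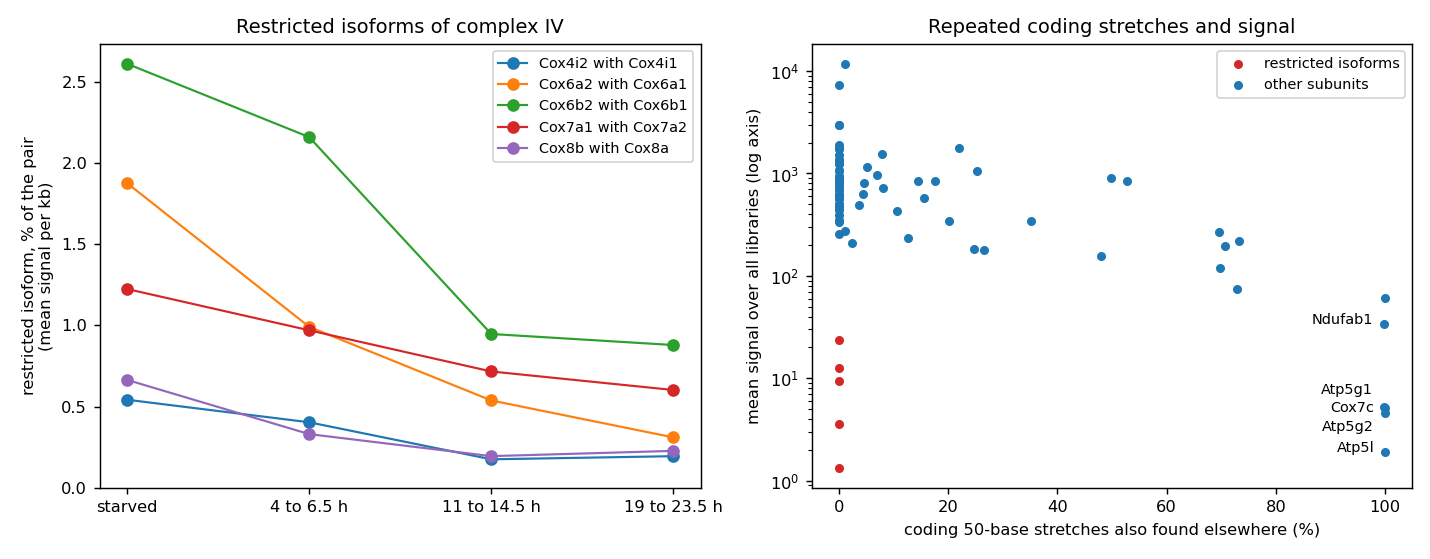
Left: share of the tissue-restricted isoform in the summed mean signal per kb of each complex IV pair (y axis, percent) in the starved libraries and in 3 time windows. Right: share of 50-base coding stretches also found elsewhere (x axis, percent) against the mean signal over all libraries (y axis, log scale), 1 point per subunit. All 5 restricted shares are lower at 19 to 23.5 h than in starved cells, and the genes named at the right edge sit below a signal of 100.

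Among the 63 subunits with few repeated stretches, levels per kb of transcript differed between the complexes. The median signal per kb over all libraries was 572 in complex I (n = 32), 686 in complex II, 1123 in complex III, 1929 in complex IV and 1344 in complex V. The highest was Atp5b, the catalytic beta subunit of ATP synthase, at 6105 per kb, and the lowest was Ndufs3, a core subunit of complex I, at 150. Within complexes the range ran from 279 (Sdhc) to 1052 (Sdhd) in complex II, from 734 (Uqcrc2) to 3090 (Uqcrq) in complex III, from 806 (Cox7b) to 4374 (Cox4i1) in complex IV and from 568 (Atp5f1) to 6105 in complex V. Subunits of a complex differed more in level than the medians of the complexes did.

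Promoters were read from RefSeq (GRCm38.p6), from 250 bases before to 50 after each start, for the 75 members matched by symbol. The recognition letters of NRF1, GCGCANGCG on either strand, were present in 23 of their 81 promoters, or 28.4%, against 6.25% of all 32851 promoters. The letters of YY1 (AAGATGGCG) were found in 11.1% against 1.40%, those of ETS factors (CCGGAAG) in 21.0% against 8.86% and those of ERR (AAGGTCA) in 9.88% against 4.72%. The NRF1 letters can match both strands at shifted positions of a single place and were counted once per promoter. They stood in 5 of the 16 matched members that were higher at 19 to 23.5 h, among them Ndufaf4, Ndufa8 and Sdhd, and also in Sdha, which was lower at 4 to 6.5 h. A match describes the sequence and does not show binding. The 4 stretches are shown with the matched letters in capitals, written along the strand of the gene.
Ndufaf4 (chr4:24897954-24897994, forward strand): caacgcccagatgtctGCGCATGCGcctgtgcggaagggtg
Ndufa8 (chr2:36049343-36049383, reverse strand): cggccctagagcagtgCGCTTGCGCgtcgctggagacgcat
Sdhd (chr9:50603904-50603944, reverse strand): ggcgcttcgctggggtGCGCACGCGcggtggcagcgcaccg
Sdha (chr13:74350314-74350354, reverse strand): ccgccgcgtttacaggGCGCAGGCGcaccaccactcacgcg

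Fewer of the members than of all genes were called as changed over the time course. With a moderated F test in limma over the 10 windows and a Benjamini-Hochberg adjusted p under 0.05 over all genes, 34 of the 91 members (37.4%) and 25 of the 80 subunits (31.2%) changed, against 72.9% of all genes tested. Member transcripts are short, with a median of 760.5 bases against 2702 for the other genes, and fewer short genes were called. Among genes with at most 1000 bases, 11 of 54 members (20.4%) and 60.1% of 1058 other genes passed. With -1 h alone as baseline 30 members passed. A gene that did not pass may still have changed by a small fold.

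The median log2 change of the 80 subunits was 0.01 at 0.5 to 1.5 h, -0.06 at 2 to 3.5 h, -0.07 at 4 to 6.5 h and -0.10 at 7 to 10.5 h, after which it was 0.06 at 11 to 14.5 h, 0.14 at 15 to 18.5 h and 0.25 at 19 to 23.5 h. The median over all genes in the same windows was -0.15, -0.32, -0.25, -0.17, -0.12, -0.12 and -0.14. From 24 to 27 h to 34 to 38 h the subunit medians lay between 0.18 and 0.23. The subunit median was thus below the starved level from 2 to 10.5 h and above it from 11 h on. The median of all genes lay below the starved level in each window up to 23.5 h. The starved libraries themselves differed, with a subunit median of 0.11 at -1 h and -0.11 at 0 h in Cycle 1, against their mean. In Cycle 2 these values were -0.01 and 0.01. The subunit medians of the windows up to 11 to 14.5 h lay within the range of the starved libraries of Cycle 1. After rescaling to a common median the subunit median was 0.14 at 0.5 to 1.5 h, 0.16 at 2 to 3.5 h and 0.00 at 4 to 6.5 h, so that the early direction depends on the scaling (by edgeR the median of the members at 4 to 6.5 h was 0.05 in place of -0.09), and 0.20 at 19 to 23.5 h. Other genes of at most 1000 bases had a median of 0.11 at 19 to 23.5 h, between the members of that length, at 0.25, and all genes. When each library was centred on other genes of like transcript length, an alternative chosen after seeing the data, the median of the members at 19 to 23.5 h was 0.06 in place of 0.25.

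**Figure D2:**
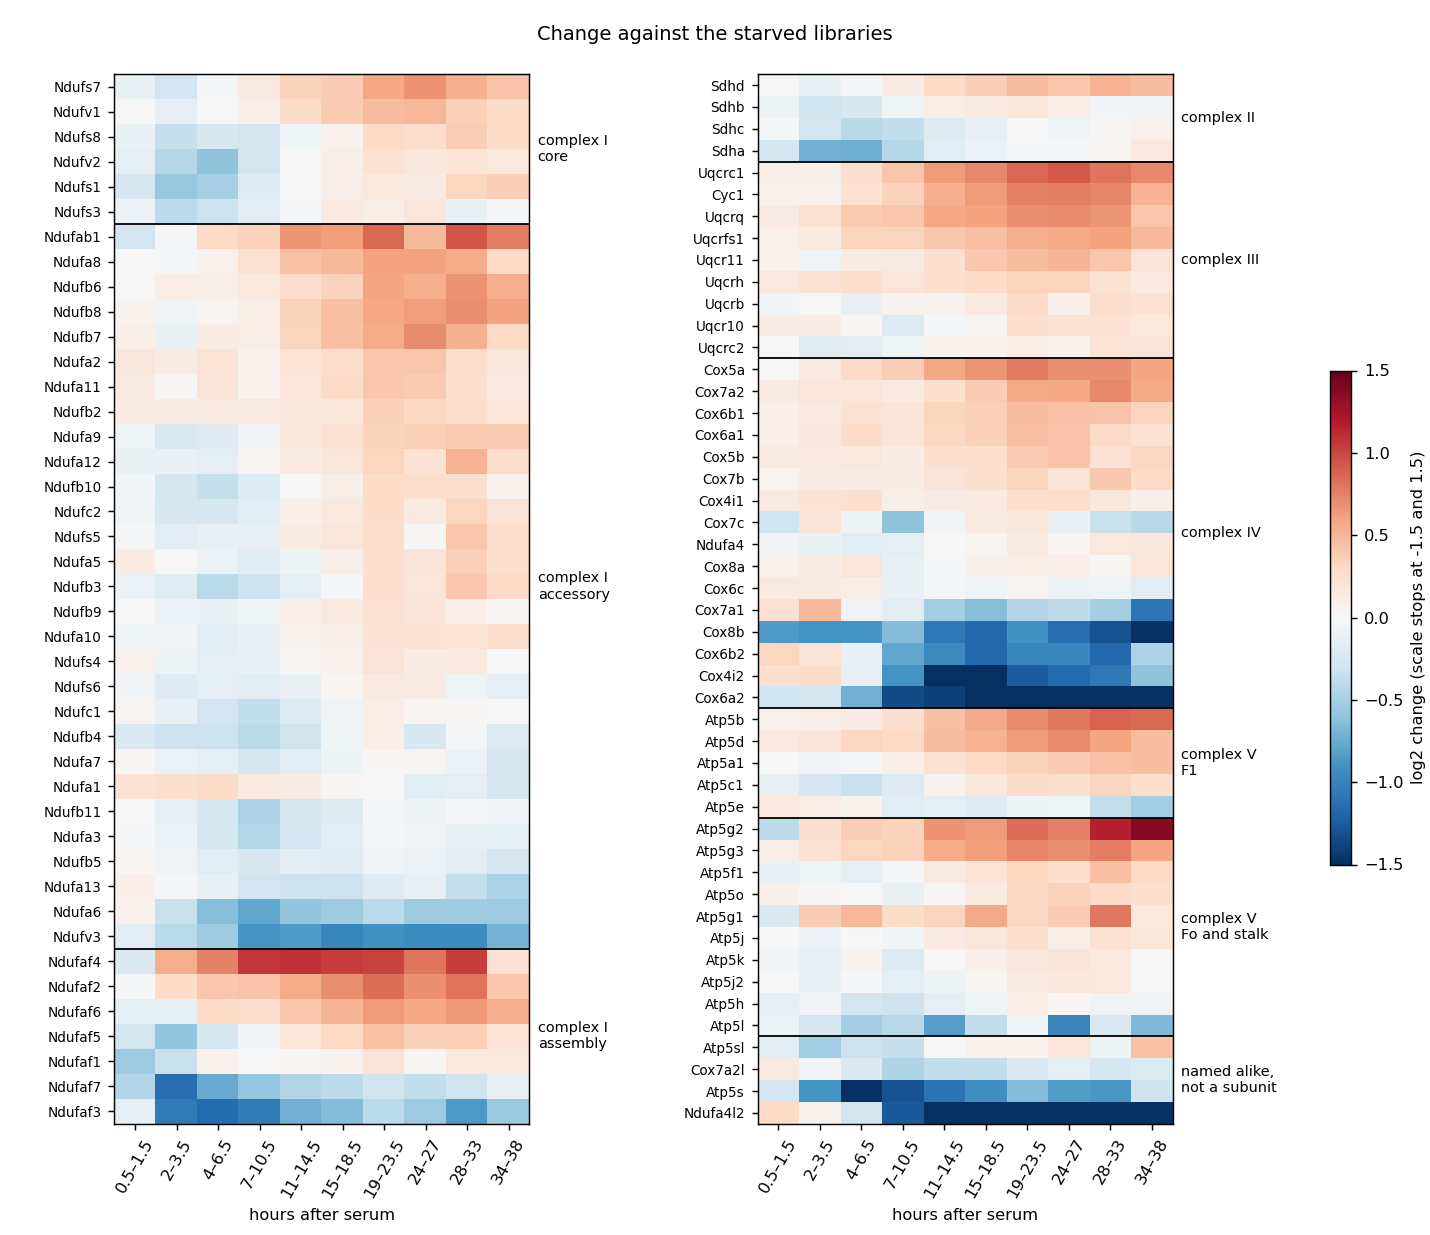
Log2 change of the member genes (rows, grouped by complex, with 1 gene left out) against the starved libraries in 10 time windows (columns, hours after serum), with colours that stop at -1.5 and 1.5. Most complex I core genes and Sdha are blue at 2 to 6.5 h, complex III is mostly red from 11 h on, and the restricted isoforms of complex IV, Ndufv3 and Ndufa4l2 are blue in the late windows.

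At 4 to 6.5 h 12 members were called lower, against 32.0% of all genes in this direction, and none was called higher by limma, against 15.8% of all genes. At an unadjusted p under 0.05 3 members were higher, and against -1 h alone limma called 3 higher and 15 lower. By edgeR on single libraries, which treats successive libraries as independent, 19 members were higher. At 11 to 14.5 h 4 members were higher (16.3% of all genes) and 8 lower (25.6%), and against -1 h alone the counts were also 4 and 8. At 19 to 23.5 h 19 members were higher (16.9% of all genes) and 7 lower (28.7%), or 15 and 6 against -1 h alone. Of the subunits alone 16 were higher and 5 lower. The F test over the whole course called 12 of the 19 members that were higher and each of the 7 that were lower. The signs of the change at 19 to 23.5 h were the same in both Cycles for 77 of the 91 members (84.6%) and for 81.7% of all genes.

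Single libraries moved the subunits together with other short genes. In Cycle 1 the subunit median was -0.24 at 5 h, 0.31 at 5.5 h and -0.24 at 6 h, and that of genes of at most 1000 bases was -0.23, 0.14 and -0.30, while the median over all genes was -0.31, -0.28 and -0.28. In Cycle 2 the 5 h library stood apart likewise, with 0.20 for the subunits between 0.01 at 4 h and -0.04 at 6 h. The 24.5 h library of Cycle 1 reached 0.62 after 0.10 at 24 h. Without the 5.5 h and 5 h libraries, left out after seeing the data, 16 members in place of 12 were lower at 4 to 6.5 h, with a member median of -0.14 in place of -0.09.

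**Figure D3:**
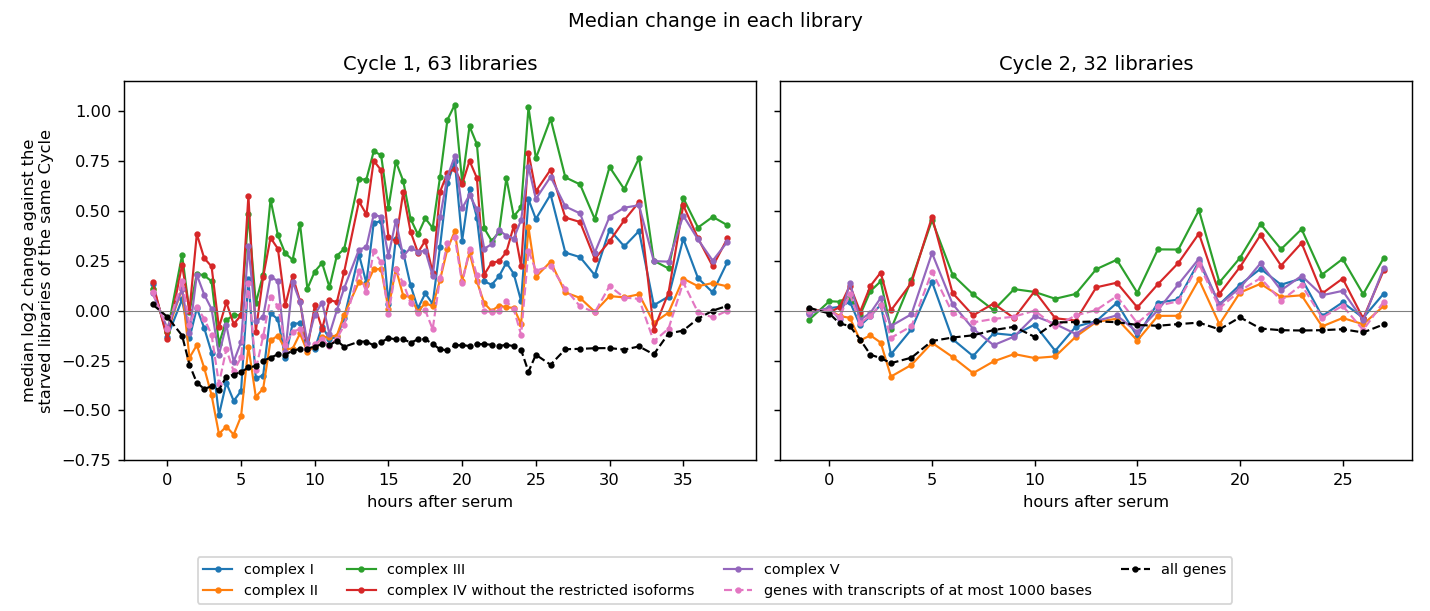
Median log2 change against the starved libraries of the same Cycle (y axis) in each library over hours after serum (x axis), for each complex, for genes with transcripts of at most 1000 bases and for all genes. Complex III is above complex I and complex II from 7 h on in Cycle 1, and the peak at 5.5 h of Cycle 1 and that at 5 h of Cycle 2 are shared by the short genes.

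Complex I takes electrons from NADH. Its median change was -0.15 at 4 to 6.5 h and 0.24 at 19 to 23.5 h. At 4 to 6.5 h the 7 core subunits, which carry the redox centres, had a median of -0.32 and the 29 accessory subunits one of -0.14. Among the core subunits Ndufs1 and Ndufv2 fell. Ndufs1, which holds iron-sulfur clusters of the NADH-oxidizing arm, had 910 and 887 in the starved libraries of Cycle 1 and 1058 and 1026 in those of Cycle 2, and from 598 over a median of 697 to 742 at 4 to 6.5 h, so that the groups did not overlap. This was a log2 change of -0.50 (SE 0.14, adjusted p = 0.0148), and Ndufs1 was back at a median of 1075 at 19 to 23.5 h (log2 change 0.16, adjusted p = 0.375). Ndufv2 fell by 0.61 on the log2 scale (adjusted p = 0.0173). The accessory subunit Ndufa6 fell by 0.64 (adjusted p = 0.0387), but by 1.11 in Cycle 1 and 0.17 in Cycle 2, and its libraries overlapped with the starved ones.

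Ndufv3, an accessory subunit of the NADH-oxidizing module, fell and stayed low. Its signal was 665 and 541 in the starved libraries of Cycle 1, 562 and 562 in those of Cycle 2, 306 to 545 (median 379) at 4 to 6.5 h and 263 to 412 (median 310) at 19 to 23.5 h, below each starved library in the last window. The log2 change was -0.53 (SE 0.16, adjusted p = 0.0189) at 4 to 6.5 h, -0.85 (adjusted p = 0.00240) at 11 to 14.5 h and -0.90 (SE 0.16, adjusted p = 0.00157) at 19 to 23.5 h. The Cycles gave -0.94 and -0.87 in the last window. Ndufv3 was the single complex I subunit called lower at 19 to 23.5 h, against 28.7% of all genes.

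In the same window 5 of the 36 complex I subunits were called higher, against 16.9% of all genes. Ndufa8 rose by 0.60 (adjusted p = 0.0225), Ndufb6 by 0.59 (adjusted p = 0.0103), Ndufb8 by 0.58 (adjusted p = 0.0236) and the core subunit Ndufs7 by 0.58 (adjusted p = 0.0210), all on the log2 scale and with no overlap with the starved libraries. Ndufab1, with signals of 24.0, 14.6, 36.2 and 20.6 in the starved libraries and 33.9 to 52.9 at 19 to 23.5 h, had a log2 change of 0.87 (SE 0.21, adjusted p = 0.00839) with overlap, and it is one of the 12 genes with repeated stretches. Ndufa3, which had the highest signal per kb in complex I at 1762, did not pass at either time, with 748, 595, 715 and 660 in the starved libraries and a median of 619 at 19 to 23.5 h (log2 change -0.03, adjusted p = 0.892).

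In complex II 2 of the 4 subunits were called lower at 4 to 6.5 h, against 32.0% of all genes. Sdha, the flavoprotein that oxidizes succinate, had 2115 and 1892 in the starved libraries of Cycle 1 and 1968 and 1976 in those of Cycle 2. At 4 to 6.5 h it was at 1021 to 1341 with a median of 1219, below each starved library, a log2 change of -0.73 (SE 0.14, adjusted p = 0.00196). At 19 to 23.5 h it was back at a median of 1981 (log2 change -0.03, adjusted p = 0.864). Sdhc, a membrane anchor, fell by 0.42 at 4 to 6.5 h (adjusted p = 0.0177). Sdhb, the iron-sulfur subunit, had 954, 826, 796 and 804 in the starved libraries and a median of 730 at 4 to 6.5 h. Sdhd, the other anchor, had a log2 change of -0.02 (adjusted p = 0.919) in that window and rose later, from 1064, 890, 1294 and 1242 in starved cells to 1368 to 1889 (median 1506) at 19 to 23.5 h, a log2 change of 0.46 (SE 0.16, adjusted p = 0.0379). The rise of Sdhd was 0.74 in Cycle 1 and 0.19 in Cycle 2.

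In complex III 4 of the 9 subunits were called higher at 19 to 23.5 h, against 16.9% of all genes. All 9 had log2 changes above 0, from 0.09 to 0.86, with a median of 0.48. Of all 15895 genes 6763 had a change above 0 in this window. Uqcrc1, a core protein of the matrix side, had 1257 and 1139 in the starved libraries of Cycle 1 and 1201 and 1274 in those of Cycle 2. It was at 1157 to 1704 (median 1423) at 4 to 6.5 h, overlapping with them, and at 1972 to 2875 (median 2190) at 19 to 23.5 h, above each of them. The log2 change was 0.25 (SE 0.16, adjusted p = 0.214), 0.64 (SE 0.16, adjusted p = 0.0101) and 0.86 (SE 0.16, adjusted p = 0.00197) at 4 to 6.5 h, 11 to 14.5 h and 19 to 23.5 h. Cyc1, the cytochrome c1 subunit, rose from 890, 729, 1004 and 1071 to 1284 to 1999 (log2 change 0.76, adjusted p = 0.0122), and Uqcrfs1, the Rieske iron-sulfur protein, by 0.54 on the log2 scale (adjusted p = 0.0128). Uqcrq rose from 783, 683, 1031 and 1035 to 1182 to 1984, a log2 change of 0.69 (SE 0.24, adjusted p = 0.0404). Uqcrc2, the partner of Uqcrc1 in the core, did not pass, with 1318, 1234, 1309 and 1480 in starved cells and 1307 to 1590 at 19 to 23.5 h (log2 change 0.09, SE 0.11, adjusted p = 0.506).

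Complex IV divided into general subunits and restricted isoforms. The 11 general subunits (Ndufa4, now assigned to this complex, included) had a median log2 change of 0.18 at 4 to 6.5 h and 0.33 at 19 to 23.5 h. In the latter window 3 of them, Cox5a, Cox6b1 and Cox7a2, were called higher, against 16.9% of all genes. Cox5a, a subunit on the matrix side, went from 751, 559, 924 and 949 in starved cells to 1110 to 1921 (median 1285) without overlap, a log2 change of 0.78 (SE 0.25, adjusted p = 0.0247). Cox6b1 rose from 1246, 1021, 1314 and 1253 to 1360 to 2331 (log2 change 0.46, adjusted p = 0.0406) and Cox7a2 from 755, 589, 814 and 803 to 898 to 1485 (log2 change 0.57, adjusted p = 0.0333), and they were called in 13 and 15 of 18 alternatives. Over the whole course limma's F test called 0 of the 11 general subunits, also at an unadjusted p under 0.05. The edgeR fit on the recovered reads of single libraries, which treats successive libraries as independent, called 10 of them. Cox4i1, with the highest signal per kb of the complex, had 3099 and 2626 in the starved libraries of Cycle 1, 2294 and 2377 in those of Cycle 2 and a median of 3006 at 19 to 23.5 h (log2 change 0.24, adjusted p = 0.160). Cox6a1, the general partner of Cox6a2, had 1410, 1224, 1526 and 1549 in the starved libraries and 1617 to 2652 (median 1867) at 19 to 23.5 h, above each of them, but did not pass (log2 change 0.45, SE 0.17, adjusted p = 0.0552). Cox8a, the partner of Cox8b, had 747, 645, 614 and 774 and then 580 to 930 (median 730), with overlap (log2 change 0.08, adjusted p = 0.700).

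The isoforms Cox6a2, Cox7a1 and Cox8b are known from heart and skeletal muscle, Cox6b2 from testis and Cox4i2 from lung. All were low here and none of their coding stretches was repeated elsewhere. Cox6a2 had 37.6, 31.0, 26.7 and 30.5 in the starved libraries, 10.8 to 24.1 at 4 to 6.5 h and 3.72 to 13.2 at 19 to 23.5 h, and both windows lay below each starved library. The log2 change was -0.72 (SE 0.23, adjusted p = 0.0248) and -2.02 (SE 0.23, adjusted p = 1.34e-04), the latter a fold of 0.246. Cox4i2 fell from 13.5, 14.6, 15.3 and 17.3 to 1.86 to 10.3 at 19 to 23.5 h (log2 change -1.25, SE 0.33, adjusted p = 0.0119).

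Cox6b2 had 49.6 and 49.7 in the starved libraries of Cycle 1 but 21.9 and 20.2 in those of Cycle 2, and 9.87 to 24.7 at 19 to 23.5 h, with overlap (log2 change -0.98, SE 0.36, adjusted p = 0.0434). Cox8b and Cox7a1 were at the level of a few reads, Cox8b with a log2 change of -0.91 (adjusted p = 0.0159) and Cox7a1 with -0.44 (adjusted p = 0.427). As a share of the summed signal per kb of its pair, Cox6a2 went from 1.88% in starved cells to 0.310% at 19 to 23.5 h, Cox6b2 from 2.61% to 0.879%, Cox4i2 from 0.542% to 0.195%, Cox8b from 0.664% to 0.227% and Cox7a1 from 1.22% to 0.602%. The restricted isoform thus made up a small part of each pair in both groups. Of the muscle markers, Myod1 had a log2 change of -1.38 (adjusted p = 0.0416) at 19 to 23.5 h, Myog -2.25 (adjusted p = 0.0495) and Ckm -2.43 (adjusted p = 0.00508), while Des had 0.08 (adjusted p = 0.903) and Actc1 -0.54 (adjusted p = 0.362). The summed signal of the 5 muscle markers was 1049 to 1890 in starved cells and 978 to 1600 at 19 to 23.5 h, and 3 of them (Myod1, Myog and Ckm) were at 0 in some library. Of the 4 endothelial markers 3 were lower at 19 to 23.5 h, with a summed signal of 176 to 272 in starved cells and 49.0 to 116 in that window, and Pecam1 and Cdh5 were at 0 in some library. Of the 4 epithelial markers 2 were lower (109 to 275, then 86.9 to 189, with Epcam at 0 in some library), and the macrophage markers summed to 207 to 436 and then to 158 to 468. The part of these cell types in the fall of the isoforms was not tested. In bulk RNA fewer cells of a type and less RNA per cell cannot be told apart.

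In complex V 3 of the 15 subunits, Atp5b, Atp5d and Atp5g3, were called higher at 19 to 23.5 h, against 16.9% of all genes. Atp5b had 7232 and 6600 in the starved libraries of Cycle 1 and 10042 and 9843 in those of Cycle 2, 7369 to 10683 at 4 to 6.5 h, and 12388 to 15212 (median 13653) at 19 to 23.5 h, above each starved library. It had a log2 change of 0.13 (SE 0.20, adjusted p = 0.619) and then 0.71 (SE 0.20, adjusted p = 0.0155), or 1.01 in Cycle 1 and 0.41 in Cycle 2. Atp5d, the delta subunit of the rotor, rose by 0.63 (adjusted p = 0.0210). Atp5g3, of the c ring, rose from 1916, 1697, 2203 and 2423 to 2795 to 4930, a log2 change of 0.74 (SE 0.21, adjusted p = 0.0162). Its copies Atp5g1 and Atp5g2, at 0 to 10.4 and 2.33 to 11.9 in that window, were near the level of a few reads.

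Atp5e, the epsilon subunit, had 1055, 865, 754 and 842 in the starved libraries and a median of 751 at 19 to 23.5 h (log2 change -0.08, adjusted p = 0.745). Atp5l, whose stretches are all repeated, was called lower at 11 to 14.5 h (log2 change -0.82, adjusted p = 0.0309) on a mean of 1.91. The 5 subunits of F1, the catalytic head, had a median log2 change of 0.35 at 19 to 23.5 h, and the 10 subunits of the membrane part and the stalk one of 0.28.

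**Figure D4:**
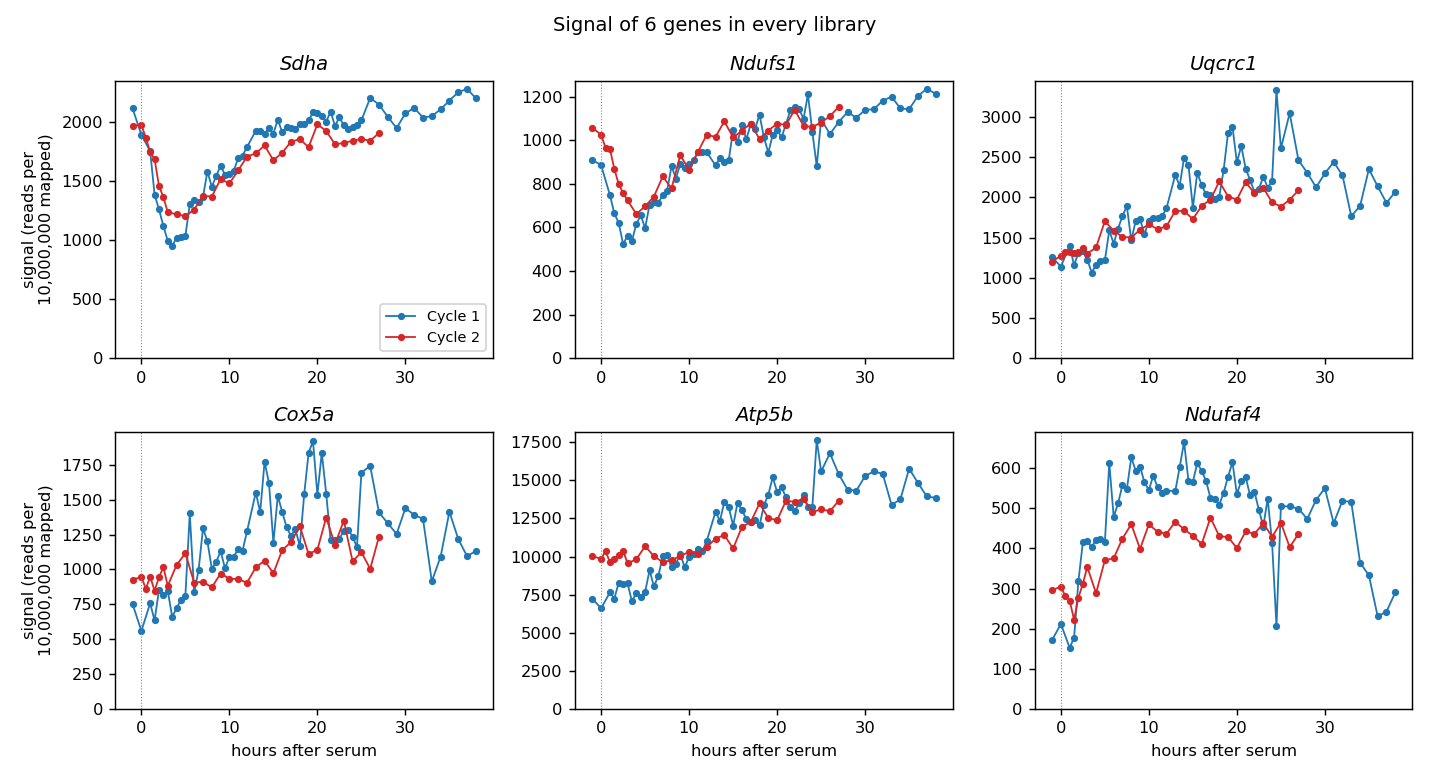
Signal (y axis, reads per 10000000 mapped) of Sdha, Ndufs1, Uqcrc1, Cox5a, Atp5b and Ndufaf4 in each library over hours after serum (x axis), with Cycle 1 in blue and Cycle 2 in red. Sdha and Ndufs1 dip at 2 to 6.5 h in both Cycles and return, whereas Uqcrc1, Cox5a and Atp5b rise later.

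Of the 7 assembly factors of complex I 6 passed the F test, against 72.9% of all genes, some of them higher and others lower than in starved cells. Ndufaf4, which acts in building the arm on the matrix side, had 171 and 212 in the starved libraries of Cycle 1 and 296 and 305 in those of Cycle 2, 288 to 613 (median 422) at 4 to 6.5 h and 401 to 615 (median 524) at 19 to 23.5 h, above each starved library. Its log2 change was 0.75 (SE 0.29, adjusted p = 0.0543), 1.08 (adjusted p = 0.0139) at 11 to 14.5 h and 1.01 (SE 0.29, adjusted p = 0.0167) at 19 to 23.5 h. Ndufaf2 rose from 137, 95.7, 131 and 137 to 166 to 332, a log2 change of 0.83 (SE 0.24, adjusted p = 0.0166), and Ndufaf6 by 0.64 (adjusted p = 0.00982).

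Ndufaf3 and Ndufaf7 fell early instead. Ndufaf3 had 122, 99.4, 74.4 and 89.8 in the starved libraries and 21.1 to 63.7 (median 38.5) at 4 to 6.5 h, below each of them (log2 change -1.15, SE 0.27, adjusted p = 0.00570). Ndufaf7, a methyltransferase, had 225, 190, 183 and 174 and then 85.0 to 148 (log2 change -0.75, SE 0.14, adjusted p = 0.00155). At 19 to 23.5 h Ndufaf3 had a log2 change of -0.41 (adjusted p = 0.237) and Ndufaf7 one of -0.30 (adjusted p = 0.105). The remaining factors did not pass in either window, Ndufaf5 with 0.44 (adjusted p = 0.0555) and Ndufaf1 with 0.19 (adjusted p = 0.340) at 19 to 23.5 h.

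Among the 91 genes the log2 change at 19 to 23.5 h was farthest from 0 for Ndufa4l2, a paralog of Ndufa4 known as a target of the hypoxia response. It had 82.7 and 121 in the starved libraries of Cycle 1 and 445 and 431 in those of Cycle 2, 64.7 to 412 (median 97.9) at 4 to 6.5 h, and 7.21 to 37.8 (median 12.1) at 19 to 23.5 h, below each starved library. Its log2 change was -2.15 at 11 to 14.5 h and -3.65 (SE 0.26, adjusted p = 1.02e-05) at 19 to 23.5 h, a fold of 0.0799, with -3.18 in Cycle 1 and -4.11 in Cycle 2. The endothelial and muscle markers that were lower in the same window are given above, and their part in this fall was not tested either. Ndufa4 itself had 1093, 887, 1158 and 1101 in starved cells and a median of 1109 at 19 to 23.5 h. Atp5s, a coupling factor of ATP synthase, fell early, from 90.2, 88.4, 48.6 and 51.9 to 13.1 to 27.5 at 4 to 6.5 h (log2 change -1.71, SE 0.23, adjusted p = 2.52e-04), and was at 33.9 to 53.9 at 19 to 23.5 h (log2 change -0.65, SE 0.23, adjusted p = 0.0411). Atp5sl (log2 change 0.05, adjusted p = 0.801) and Cox7a2l, which takes part in supercomplex formation (-0.21, adjusted p = 0.424, with 53.7% of its stretches repeated), did not pass at 19 to 23.5 h.

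The genes that serve the same organelle were counted by lists, to be read against 16.9% of all genes higher and 28.7% lower at 19 to 23.5 h. Of 16 regulators of mitochondrial biogenesis 6 were higher and 2 lower at 19 to 23.5 h. Ppargc1a, a coactivator of respiratory genes, had a log2 change of -2.14 at 4 to 6.5 h and -2.50 (adjusted p = 0.00270) at 19 to 23.5 h, on a signal of 4.12 to 40.1 in starved cells. In the same windows Ppargc1b fell by 1.51 and 0.54 (adjusted p = 0.0334 in the later one) on the log2 scale. Esrra, which encodes ERR alpha, rose by 0.68 and 0.78 (adjusted p = 0.00557), Pprc1 by 0.67 and 0.75 (adjusted p = 0.00133), Myc by 1.49 and 0.78 (adjusted p = 0.0267) and Polg by 0.56 and 0.60 (adjusted p = 0.00483). Polrmt rose by 0.68 (adjusted p = 0.0231) and Gabpb1 by 0.46 (adjusted p = 0.0460) at 19 to 23.5 h, and Tfb1m fell by 1.68 at 4 to 6.5 h (adjusted p = 7.31e-05). The F test also called Gabpa, Tfam, Tfb2m and Polg2, but not Nrf1, Yy1 or Ssbp1.

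Of 17 assembly factors of cytochrome oxidase 7 were higher at 19 to 23.5 h, with a median log2 change of 0.32, and of 16 other assembly factors 4 were, with a median of 0.19. The tricarboxylic acid cycle had 5 of 13 genes higher (median 0.24), Idh3a by 1.27 and Mdh2 by 1.04. Among 6 electron and nucleotide carriers 2 were higher (median 0.51), the adenine nucleotide carrier Slc25a5 by 1.27 and the phosphate carrier Slc25a3 by 0.71. Protein import and folding had 13 of 17 higher (median 1.06), with Timm17a at 1.68, and the mitochondrial ribosomal proteins 43 of 75 (median 0.55). How these lists differ from the 91 members was not tested.

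The subunit medians of the Cycles are given side by side, and their difference was not tested. At 19 to 23.5 h the median was 0.39 in Cycle 1 and 0.11 in Cycle 2, against -0.19 and -0.09 over all genes. At 4 to 6.5 h it was -0.13 and 0.05, and at 11 to 14.5 h 0.19 and -0.04. A limma interaction of Cycle and window on single libraries called 13 of the 91 members (11 of the 80 subunits), against 23.9% of all genes, and successive libraries of a Cycle are not independent. The windows of highest and lowest signal were counted for the subunits and not for all genes. In Cycle 1 43 of the 80 subunits were highest at 24 to 27 h and 27 lowest at 4 to 6.5 h. The 24 to 27 h window of Cycle 1 has 5 libraries and includes that of 24.5 h, with a subunit median of 0.62 against 0.10 at 24 h. In Cycle 2, where no library was taken after 27 h, 36 were highest at 19 to 23.5 h and 20 at 4 to 6.5 h, and 21 were lowest at 7 to 10.5 h.

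Atp5b, lower in the starved libraries of Cycle 1 than in those of Cycle 2, had medians of 13984 and 13597 at 19 to 23.5 h. Its log2 change was lower in Cycle 2 by 0.60 (adjusted p = 4.66e-05). Ndufaf4, likewise lower in the starved libraries of Cycle 1, had a difference of -0.97 (adjusted p = 3.01e-04). For Uqcrc1 the changes of 0.99 in Cycle 1 and 0.74 in Cycle 2 did not pass the test of their difference (adjusted p = 0.320), nor did those of Ndufv3 (adjusted p = 0.888).

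**Figure D5:**
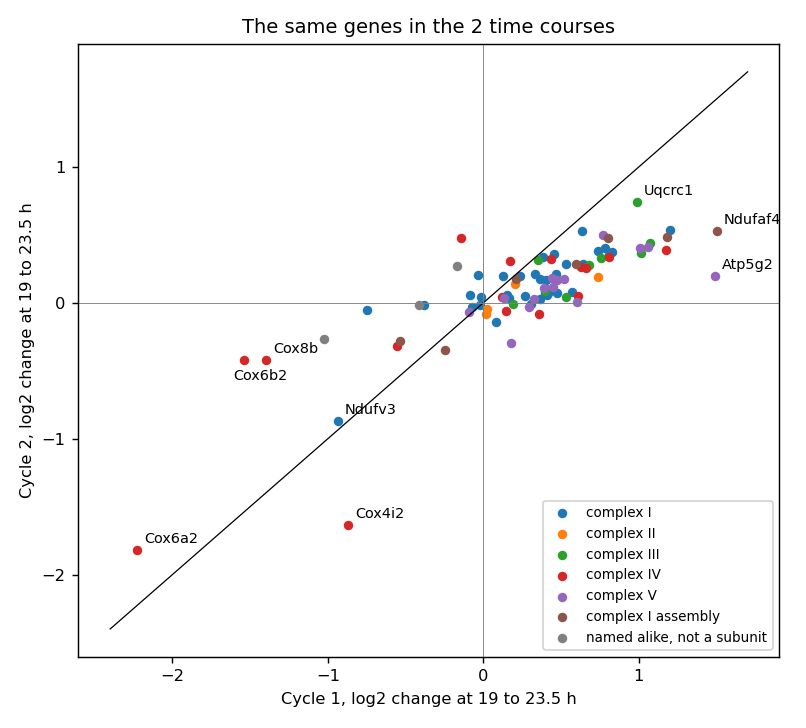
Log2 change at 19 to 23.5 h in Cycle 1 (x axis) against Cycle 2 (y axis), 1 point per gene, with the line of equal change. Ndufa4l2, at -3.18 and -4.11, is left out to keep the scale. Most points above 0 lie below the line, where the change is smaller in Cycle 2.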

How the data were processed

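The members and the gene lists were chosen with earlier results of these data known, and the lists support nothing on their own. Per the labels, RNA was prepared with a stranded mRNA kit and sequenced as single-end 50-base reads. The authors demultiplexed with CASAVA, aligned with STAR to mm9 and counted reads on exons with HOMER (no versions are named), and the deposited values are a signal, the reads per gene scaled to 10000000 mapped reads per library, with reads of both strands counted, so that a gene and an antisense partner cannot be told apart. Of 96 columns 95 carry the name of a library and 1 was not used. In each library 94.2% to 96.2% of the low values were whole multiples, within 0.1, of the value of 1 read, which gave the depth (median 10832557 reads).

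From these values log2(value + 1) was averaged within each time window of each Cycle and fitted with limma 3.58.1 in R 4.3.3 (lmFit and eBayes, trend and robust options off) on all 15895 genes, with the Cycle as a block and Benjamini-Hochberg adjusted p under 0.05 over all genes. A change is thus on the log2(value + 1) scale and understates that of low genes. The pairing comes from the labels, which name the Cycle of each library. No source says that the Cycles came from separate embryos or cultures. With the Cycle as a block, p-values measure how the window values differ between 2 time courses beyond a constant shift. This spread was pooled over the windows with 8 residual degrees of freedom, and successive windows of a Cycle are not independent. The difference between the Cycles was fitted on single libraries. As an alternative edgeR 4.0.16 was run on the recovered reads of single libraries, which treats successive libraries as independent. Scripts used Python 3.11.15, numpy 2.4.6, pandas 2.3.3, numba 0.67.0 and matplotlib 3.10.9. The limma fits of the window changes and of the Cycle difference and the edgeR fit were tested on simulated data at 19 to 23.5 h. There the limma fit on Cycle means recovered 0 of 50 planted changes of 1.25-fold and 1 of 50 of 1.5-fold. It recovered 26 of 50 of 2-fold and 46 of 50 of 4-fold. Only these genes were changed in the simulation. In the data 16.9% of all genes were called higher and 28.7% lower, so the adjusted threshold differed. A gene that did not pass can still have changed by 2-fold, and in the simulation some changes of 4-fold were missed as well.

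Transcripts, lengths and coding sequences are those of GENCODE vM1 on NCBIM37, and 50-base stretches were searched on both strands of that genome. Promoters are those of RefSeq. The genes described in full are, for each complex, the subunit with the highest level per kb and those with the largest rise and fall at 19 to 23.5 h among subunits with a mean of at least 10, the isoforms with their partners, the members that are not subunits and the biogenesis regulators. Ndufs1 and the other subunits with values were added after their values were seen, because they were called. Cox7b is given only by its level per kb and its difference between the Cycles. Uqcc1, Uqcc2 and Adgre1 of the lists matched no gene name and were not analysed here. The values of 1 member are not reported here, though it is in the counts and medians. Alternatives changed the baseline, block, unit of replication, pseudocount (10), filter (a mean of at least 10), scaling, hours, libraries and call rule (a fold above 1.5). Removing the 5.5 h and 5 h libraries, centring on genes of like length and the -1 h baseline were chosen after seeing the data.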

Additional observations from a re-analysis of the deposited data

Results flagged for a closer look

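Dixon's test was applied to 72 groups, the 4 starved libraries and the 9 libraries of 4 to 6.5 h for each of the 36 named members. Other windows were not tested in this way. The test marked 2 libraries as far from the others of their group, where chance marks about 1 in 20 groups. Cox8b was at 6.495 in the 5.5 h library of Cycle 1 and between 0 and 2.97 in the other libraries of 4 to 6.5 h. Ndufaf2 was at 95.74 in the starved 0 h library of Cycle 1 and at 130.7 to 136.8 in the other 3 starved libraries.

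For 8 of the 36 named members the log2 change at 19 to 23.5 h differed between the Cycles by the limma interaction on single libraries. By the same test 23.9% of all genes differed, and some of the 36 were named for their change in this window. Values are given as Cycle 2 minus Cycle 1 with Benjamini-Hochberg adjusted p. The difference was -0.60 for Atp5b (1.01 in Cycle 1 and 0.41 in Cycle 2, adjusted p = 4.66e-05), -0.97 for Ndufaf4 (1.50 and 0.53, adjusted p = 3.01e-04) and -0.54 for Sdhd (0.74 and 0.19, adjusted p = 0.00372). It was -0.79 for Cox5a (adjusted p = 0.00875), -0.65 for Atp5g3 (adjusted p = 0.00946), -0.69 for Ndufaf2 (adjusted p = 0.0274) and -0.55 for Cox7b (adjusted p = 0.0423). Cox6b2, which fell less in Cycle 2, had a difference of 1.11 (-1.54 and -0.42, adjusted p = 0.0462).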

How the results depend on the processing

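No alternative turned a called change of a member around at 4 to 6.5 h or 19 to 23.5 h, the windows where this was checked. Of the 19 members called higher at 19 to 23.5 h 13 were called in each of the 18 alternatives, of the 7 called lower 3 were, and of the 12 called lower at 4 to 6.5 h 7 were. At 19 to 23.5 h Cox6b2 and Cox8b were called in 12 alternatives, Cox6b1 in 13 and Atp5s in 14. Sdhd, Ndufab1 and Cox7a2 were called in 15. At 4 to 6.5 h Cox8b was called in 11 alternatives, Ndufa6 in 13 and Cox6a2 in 14. Leaving out 1 starved library or 1 Cycle gave 32 to 83 members changed over the windows (34 with all libraries), 0 to 14 higher and 11 to 22 lower at 4 to 6.5 h (0 and 12), 2 to 26 higher and 8 to 12 lower at 11 to 14.5 h (4 and 8), and 15 to 45 higher and 4 to 9 lower at 19 to 23.5 h (19 and 7). Without Cycle 1 the F test called 64 members and without Cycle 2 83, on single libraries. The count of 4 higher at 11 to 14.5 h was 7 without the -1 h and 2 without the 0 h library of Cycle 1. With single libraries as observations, which treats successive libraries as independent, the counts were 79 changed, 4 higher and 26 lower at 4 to 6.5 h, 21 and 14 at 11 to 14.5 h, and 46 higher at 19 to 23.5 h. edgeR on the recovered reads of single libraries gave 85 changed and 19, 31 and 56 higher in these windows, with a member median of 0.048 at 4 to 6.5 h in place of -0.09. Rescaling gave 22 changed, 5 higher at 4 to 6.5 h and 7 higher at 11 to 14.5 h. Without the pairing by Cycle (no replicate block) 23 members changed, 5 were lower at 11 to 14.5 h, and 16 were higher and 4 lower at 19 to 23.5 h. Higher at 4 to 6.5 h were also 3 members against -1 h alone, 1 against 0 h alone, 2 with a mean of at least 10, 2 with pseudocount 10 and 4 when centred on genes of like length, where the median at 19 to 23.5 h was 0.057 in place of 0.25. The cause of these differences was not tested. Reads with several matches limit the 12 genes with repeated stretches, and few reads limit the 7 members with a mean under 10.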
